A study of Homo sapiens with 6 samples.

Results

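The genes described are the 3 D-type cyclins (CCND1, CCND2, CCND3), their kinases (CDK4, CDK6), 2 inhibitors of these complexes (CDKN2C, CDKN1B) and the 3 members of the RB family (RB1, RBL1, RBL2). They were found as the rows of the deposited gene table that carry these symbols, which gave 10 genes of 60612. The group was put together with the low CCND1 values in siGSE1 cells already known. The values of these 10 genes in siGSE1 and control cells are therefore given as a description, with no p-value. RNA sequencing was done on A549, a human lung adenocarcinoma cell line. The first group is 3 libraries of A549 cells transfected with small interfering RNA (siRNA) against GSE1 (siGSE1), and the second is 3 libraries of A549 cells transfected with a negative control siRNA (control). Cells were transfected 24 hours after plating and collected 48 hours later, so both groups carry a transfected siRNA and no untransfected cells were analysed here. The sources used here give neither the siRNA sequences nor their number, and the labels do not say whether replicates 1 to 3 were separate cultures, so the p-values of other genes below measure only the spread between these libraries.

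D-type cyclins are made in response to growth signals and activate CDK4 and CDK6 in the G1 phase of the cell cycle. The active kinases phosphorylate RB1 and its relatives RBL1 (p107) and RBL2 (p130), which otherwise hold E2F transcription factors in check. CDKN2C (p18) binds CDK4 and CDK6 and keeps the cyclin out, whereas CDKN1B (p27) binds whole cyclin-kinase complexes and blocks CDK2 most strongly. In lung adenocarcinoma the pathway is often altered by loss of the INK4 inhibitor genes or by high cyclin D1.

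Library totals ran from 17521807 to 19914346 counts in siGSE1 cells and from 14475992 to 20755506 in control cells. GSE1, the targeted gene, had 3.84, 4.06 and 3.73 FPKM in siGSE1 cells, against 7.37, 8.06 and 7.92 FPKM in control cells. It was lower in all 3 siGSE1 libraries, with a log2 fold change of -1.03 and SE 0.06 (adjusted p = 2.14e-08, edgeR). FPKM are counts divided by exonic length and by the library total. The exact two-sided permutation p for GSE1 on log2(FPKM + 1) was 0.1, the smallest that 3 libraries against 3 allow. Of 5 epithelial markers, KRT8, KRT18, KRT19 and CDH1 were abundant and EPCAM was under 1 FPKM in both groups, and their summed level was 1514 to 1545 FPKM in siGSE1 cells and 1565 to 2051 in control cells. Summed markers reached at most 2.28 FPKM for fibroblasts, 5.83 for leukocytes and 0.17 for endothelial cells, and CD14 held most of the leukocyte sum. Control replicate 2 stood apart, with a chi-square per degree of freedom of 9.20 and 8.23 against the other control libraries. It was 4.34 between control replicates 1 and 3, and 2.44 to 3.17 within siGSE1. Values without it are given beside the fold changes of CCND1, CCND3, CDK6, CDKN2C, CDKN1B and RB1.

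Of the 10 genes, 9 had counts in every library and passed the filter on low counts, and CCND2 was at 0 throughout. In the edgeR fit over all genes, 2 of the 9 passed the threshold of an adjusted p of 0.05 as lower in siGSE1 cells (CCND1 and CCND3), 1 as higher (CDK6), and 6 did not pass. The group was chosen with the CCND1 decrease known, so these member counts are a description and no independent evidence. Over all 15937 genes tested, 9.02% passed as lower, 10.9% as higher and 19.9% in either direction. With values rescaled to a fixed sum of length-scaled counts per library (TPM scaling), the share of calls that were higher was 73.2%, and with GC and length trends removed it was 47.4%, against 54.6% in the fit reported. The median log2 fold change of the 9 genes was 0.09, and that of all genes tested was 0.00. The siGSE1 and control FPKM did not overlap in 7 of the 9, which were lower for CCND1 and CCND3 and higher for CDK4, CDK6, CDKN2C, RBL1 and RBL2. Among all genes tested, 36.1% did not overlap, 21.2% as higher and 14.9% as lower in siGSE1 cells. The library scaling factors of the fit (TMM) were 1.006 to 1.013 in siGSE1 cells and 0.980 to 1.002 in control cells, and FPKM do not carry them. The narrow FPKM gaps of CDK4 and RBL1 depend on this scaling. Bulk libraries cannot tell less RNA per cell from fewer cells in a cell-cycle phase that holds the RNA.

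**Figure D1:**
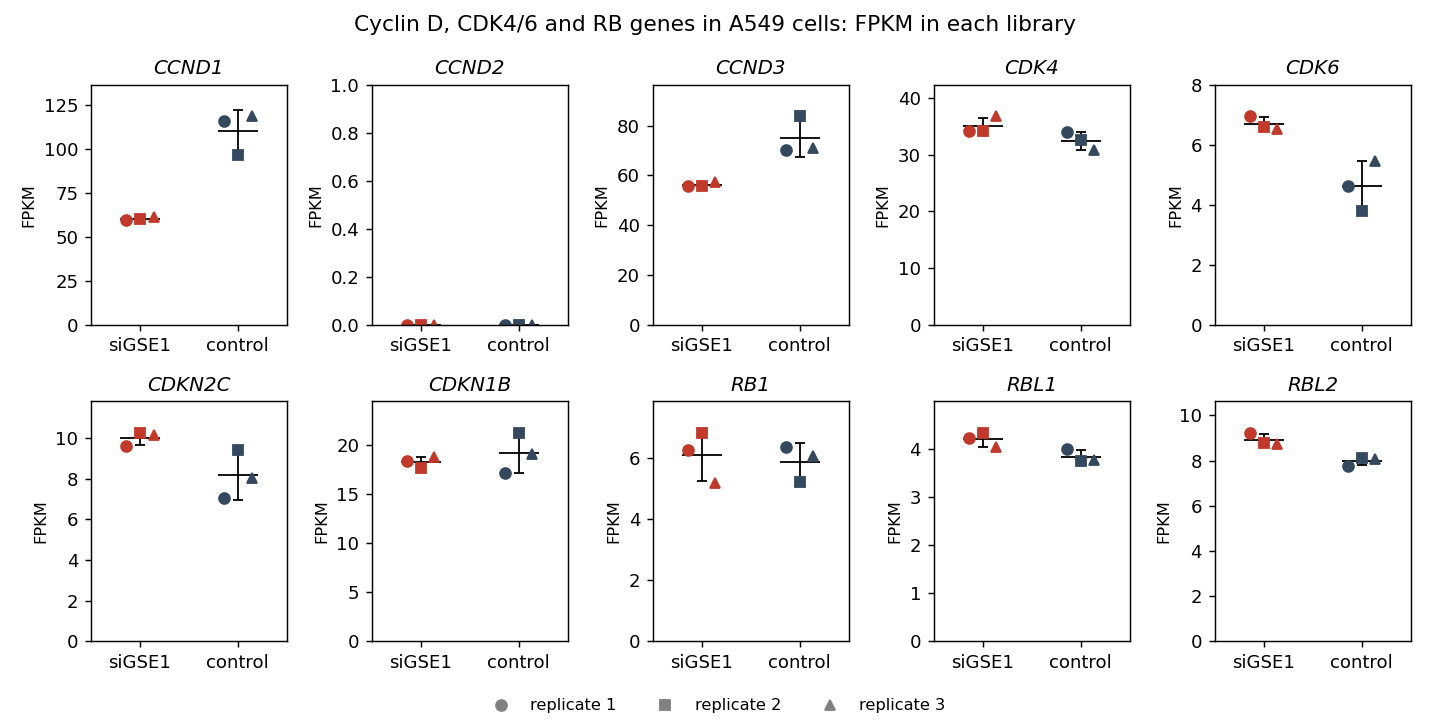
FPKM of the 10 genes in each library, with siGSE1 left of control in every panel. Points are single libraries with a marker per replicate number, and bars are the mean and SD over 3 libraries. CCND1 and CCND3 sit lower and CDK6 higher in every siGSE1 library, CCND2 is at 0 in all 6, and control replicate 2 (square) lies apart for CCND1, CCND3 and CDKN2C.

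Cyclin D1 and cyclin D3 supplied all of the measured D-cyclin RNA. CCND1 (ENSG00000110092, chromosome 11, 69641156 to 69654474, plus strand, hg38) encodes cyclin D1, the growth-factor sensor of the G1 phase. It had 59.47, 60.33 and 61.22 FPKM in siGSE1 cells, against 115.85, 96.96 and 118.78 FPKM in control cells. All 3 siGSE1 libraries lay below all 3 control libraries, and within the control group replicate 2 was the lowest. The log2 fold change was -0.90 (SE 0.07), or 53.7% of the control level, and it was -0.98 without control replicate 2. Of the tested genes, 231 had a lower log2 fold change than CCND1. Among the 716 with at least 50 FPKM in control cells, a limit chosen after the values were seen, 0 had a lower one. The group was chosen with the CCND1 decrease known, so these ranks restate that choice and are no evidence. Counts were 4961 to 5804 in siGSE1 cells and 8186 to 11321 in control cells, so counting error was at most 1.42%.

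CCND3 (ENSG00000112576, chromosome 6, 41934934 to 42050357, minus strand) encodes cyclin D3, best known in lymphoid cells and muscle. It had 55.73, 55.85 and 57.28 FPKM in siGSE1 cells, against 70.26, 83.82 and 71.2 FPKM in control cells. The groups did not overlap, and control replicate 2, lowest of its group for CCND1, was highest for CCND3. CCND3 had a log2 fold change of -0.44 (SE 0.06), and -0.35 without control replicate 2. CCND2 (ENSG00000118971, chromosome 12, 4269771 to 4305353, plus strand), the third D cyclin, had 0 counts in each library. A floor of 3 counts per library puts its level at no more than 0.0189 to 0.0214 FPKM in siGSE1 cells and 0.0181 to 0.0259 FPKM in control cells, for counting error alone.

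The summed D-cyclin level was 115.2, 116.18 and 118.5 FPKM in siGSE1 cells, against 186.11, 180.78 and 189.98 FPKM in control cells. The sum varied less across the control libraries than either gene did, since replicate 2 was low for CCND1 and high for CCND3. The siGSE1 mean was 62.8% of the control mean. CCND1 made up 51.6%, 51.9% and 51.7% of this sum in siGSE1 cells, against 62.2%, 53.6% and 62.5% in control cells. The shares did not overlap, but control replicate 2 lay closer to the siGSE1 libraries than to the other control libraries. The CCND1 to CCND3 ratio of FPKM was 1.07 ± 0.01 in siGSE1 cells and 1.49 ± 0.29 in control cells (SD, n = 3 each), and 1.66 in control cells without replicate 2.

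Of the kinase genes, CDK6 was higher in siGSE1 cells and CDK4 did not pass the threshold. CDK4 (ENSG00000135446, chromosome 12, 57747727 to 57756013, minus strand) encodes the main partner of cyclin D1 in epithelial cells. It had 34.2, 34.25 and 36.81 FPKM in siGSE1 cells, against 33.95, 32.58 and 30.77 FPKM in control cells. Before TMM scaling the lowest siGSE1 value lay just above the highest control value. The log2 fold change was 0.09 (SE 0.06). It was 0.05 without siGSE1 replicate 3 and 0.03 without control replicate 3. CDK6 (ENSG00000105810, chromosome 7, 92604921 to 92836573, minus strand) encodes the second cyclin D kinase. It had 6.96, 6.59 and 6.52 FPKM in siGSE1 cells, against 4.64, 3.78 and 5.47 FPKM in control cells. Every siGSE1 library was higher than every control library, and the control libraries were spread more widely, with a coefficient of variation of 3.53% in siGSE1 cells and 18.3% in control cells. The log2 fold change was 0.51 (SE 0.09), or 1.43-fold, and 0.38 without control replicate 2.

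CDK6 made up 16.91%, 16.14% and 15.05% of the summed CDK4 and CDK6 FPKM in siGSE1 cells, against 12.02%, 10.40% and 15.09% in control cells. These shares overlapped through control replicate 3. The kinase sum was 41.8 ± 1.35 FPKM in siGSE1 cells and 37.1 ± 1.32 FPKM in control cells (SD, n = 3 each). The ratio of summed D cyclins to summed kinases was 2.80, 2.84 and 2.73 in siGSE1 cells, against 4.82, 4.97 and 5.24 in control cells, with no overlap. These are ratios of RNA per exonic length and not of protein.

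**Figure D2:**
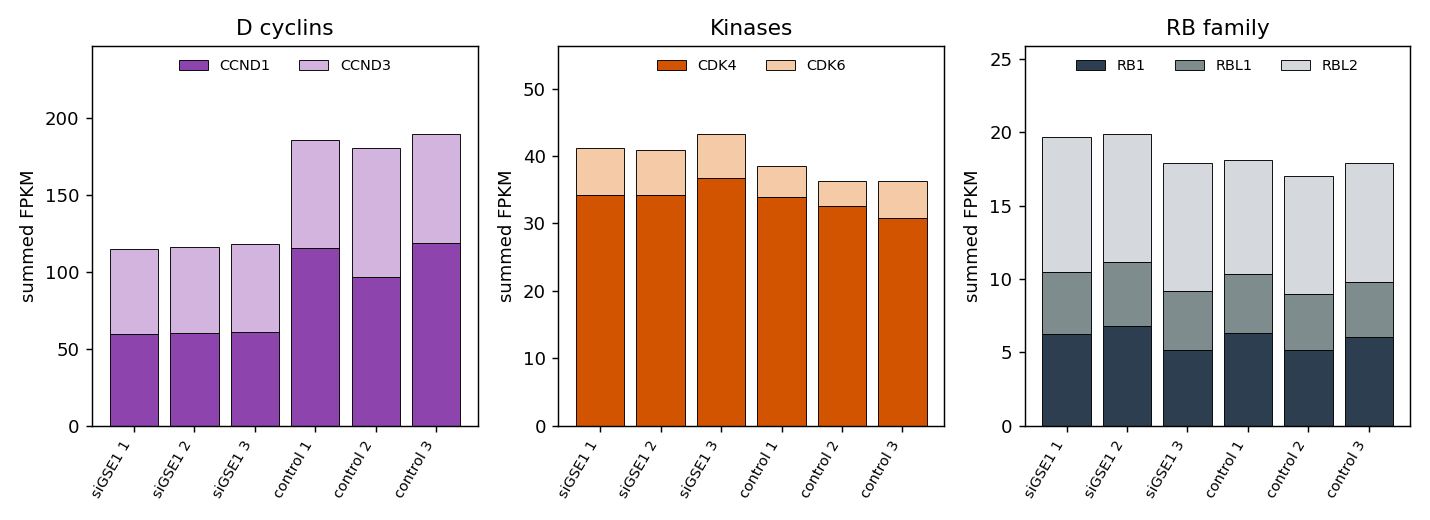
Summed FPKM in each library, with the 3 siGSE1 libraries left of the 3 control libraries, for the D cyclins (CCND2 is 0), the kinases and the RB family. The D-cyclin bars reach 115.2 to 118.5 FPKM in siGSE1 cells and 180.78 to 189.98 FPKM in control cells, while the RB family bars overlap.

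The sequences before the transcription starts of CDK4, CDK6 and RBL1 are shown because they carry known promoter elements. The elements are E boxes (CACGTG, bound by MYC and other factors), GC boxes (GGGCGG, bound by SP and KLF factors) and E2F sites (TTTGGCGC, TTTGCCGC, TTTCGCGC or TTTCCCGC). The sequences are RefSeq promoter sequences of GRCh38.p14, the 250 bases before the start, given 5′ to 3′ on the strand of the gene. Capitals mark these elements on either strand. The CDK6 start is the first of 2 listed.
CDK4 promoter (chr12:57752311-57752560, minus strand): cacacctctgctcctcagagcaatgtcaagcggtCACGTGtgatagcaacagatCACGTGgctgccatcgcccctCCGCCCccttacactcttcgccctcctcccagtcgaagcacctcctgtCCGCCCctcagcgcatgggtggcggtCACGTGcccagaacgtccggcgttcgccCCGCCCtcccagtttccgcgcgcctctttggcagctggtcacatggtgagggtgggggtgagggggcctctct
CDK6 promoter (chr7:92836574-92836823, minus strand): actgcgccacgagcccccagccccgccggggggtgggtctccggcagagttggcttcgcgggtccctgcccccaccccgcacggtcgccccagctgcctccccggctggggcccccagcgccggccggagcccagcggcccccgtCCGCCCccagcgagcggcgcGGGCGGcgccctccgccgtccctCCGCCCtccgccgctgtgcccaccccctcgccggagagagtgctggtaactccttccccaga
RBL1 promoter (chr20:37095998-37096247, minus strand): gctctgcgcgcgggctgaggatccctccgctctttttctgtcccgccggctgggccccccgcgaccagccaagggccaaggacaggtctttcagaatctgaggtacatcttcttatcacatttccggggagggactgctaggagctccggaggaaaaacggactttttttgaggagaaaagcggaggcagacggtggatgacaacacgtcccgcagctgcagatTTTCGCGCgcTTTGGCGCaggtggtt

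The table listed 14 starts for 8 of the 10 genes, and CCND1 and CCND2 had no entry. An entry lies before the gene as the deposited table bounds it for CDK6, CDKN2C and RBL1, whereas all entries of CCND3, CDK4, CDKN1B, RB1 and RBL2 lie inside the gene, so the sequence before the outermost start of these 5 genes was not searched. An E box was found in CDK4, which has 3, and CDKN2C, in 3 of the 14 starts, and in 6.34% of 35116 promoters of the same length. A GC box was found in CCND3, CDK4, CDK6, CDKN1B and CDKN2C, in 7 of the 14 starts, and in 42.6% of all promoters. An E2F site was found in RBL1 alone among the 8, in 1 of the 14 starts, and in 2.79% of all promoters. Its 2 copies lay 26 and 16 bases before the start. The CRE (TGACGTCA) and the CHR (TTTGAA) were found in none of the 8 genes and in 1.65% and 13.3% of all promoters. The log2 fold changes were 0.09 for CDK4 and 0.27 for CDKN2C, which hold E boxes, and 0.10 for RBL1, which holds E2F sites, and none of these passed the threshold in the fit reported, though CDKN2C passed in 7 of 15 alternatives. These matches describe letters in a window and say nothing of which factor was bound.

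The inhibitor genes did not pass the threshold. CDKN2C (ENSG00000123080, chromosome 1, 50960745 to 50974634, plus strand) had 9.61, 10.25 and 10.15 FPKM in siGSE1 cells, against 7.04, 9.42 and 8.01 FPKM in control cells. The siGSE1 libraries were all higher, with control replicate 2 nearest to them. CDKN2C had a log2 fold change of 0.27 (SE 0.10). It was 0.17 and not past the threshold without control replicate 1, and 0.39 and past it without control replicate 2. CDKN1B (ENSG00000111276, chromosome 12, 12715058 to 12722369, plus strand) had 18.31, 17.65 and 18.75 FPKM in siGSE1 cells, against 17.11, 21.23 and 19.09 FPKM in control cells. The siGSE1 values lay inside the control range, and the log2 fold change was -0.09 (SE 0.08). It was -0.17 without control replicate 1 and -0.01 without control replicate 2. The CDKN1B to CDKN2C ratio of FPKM was 1.91, 1.72 and 1.85 in siGSE1 cells, against 2.43, 2.25 and 2.38 in control cells. This ratio was lower in all 3 siGSE1 libraries than in any control library, control replicate 2 included. The ratio of summed D cyclins to CDKN1B was 6.40 ± 0.16 in siGSE1 cells and 9.78 ± 1.19 in control cells (SD, n = 3 each).

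None of the RB family passed the threshold. RB1 (ENSG00000139687, chromosome 13, 48303744 to 48599436, plus strand), the retinoblastoma tumor suppressor, had 6.24, 6.81 and 5.16 FPKM in siGSE1 cells, against 6.34, 5.2 and 6.06 FPKM in control cells. The groups overlapped, and the log2 fold change was 0.02 (SE 0.10), below 0 without siGSE1 replicate 2 (-0.06), without control replicate 2 (-0.06) and with GC and length trends removed (-0.01). RBL1 (ENSG00000080839, chromosome 20, 36996349 to 37095997, minus strand), the relative that pairs with E2F4 in cycling cells, had 4.22, 4.33 and 4.03 FPKM in siGSE1 cells, against 3.99, 3.75 and 3.77 FPKM in control cells. RBL2 (ENSG00000103479, chromosome 16, 53433977 to 53491648, plus strand), the relative best known in resting cells, had 9.23, 8.78 and 8.75 FPKM in siGSE1 cells, against 7.78, 8.11 and 8.07 FPKM in control cells. Both had higher FPKM in every siGSE1 library by small margins, and for RBL1 the gap depends on the library scaling. The log2 fold changes were 0.10 (SE 0.08) for RBL1 and 0.13 (SE 0.06) for RBL2. With TPM scaling RBL2 passed the threshold (log2 fold change 0.20). RBL2 made up 46.6% ± 2.36 of the family sum in siGSE1 cells and 45.2% ± 2.29 in control cells, and RB1 31.5% ± 2.71 and 33.1% ± 2.35 (SD, n = 3 each).

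**Figure D3:**
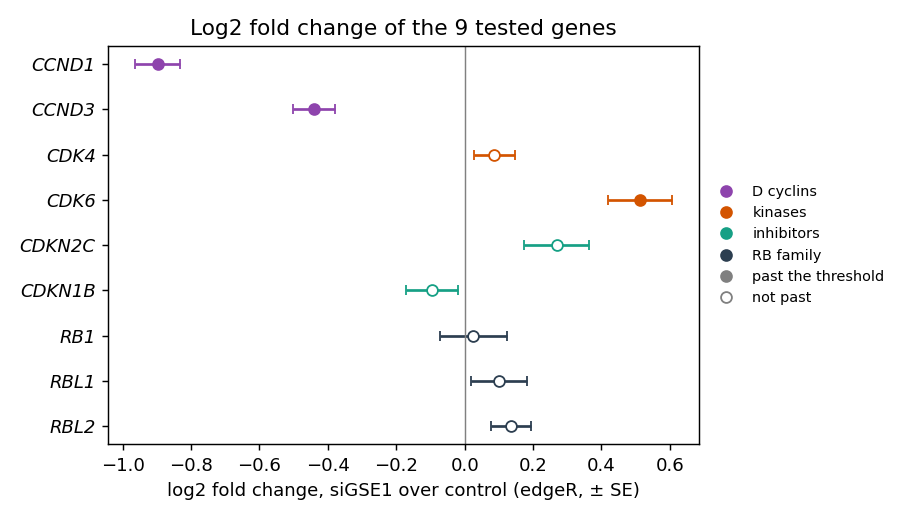
Log2 fold change of siGSE1 over control for the 9 tested genes, grouped by role, with the standard error of the edgeR fit. Filled points passed an adjusted p of 0.05 over all genes. CCND1 (-0.90) and CCND3 (-0.44) lie left of 0 and CDK6 (0.51) right of it, while RB1 (0.02) changed sign in 3 alternative fits.

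By level, the order in siGSE1 cells was CCND1, CCND3, CDK4, CDKN1B, CDKN2C, RBL2, CDK6, RB1, RBL1 and CCND2. In control cells RB1 stood above CDK6 and the order was otherwise alike. In siGSE1 cells only CDK6 and RB1 overlapped among neighbours in this order, whereas in control cells CDKN2C and RBL2, RB1 and CDK6, and CDK6 and RBL1 overlapped. CCND1 exceeded 98.2% of tested genes in control cells and RBL1 50.4%, so all 9 detected genes lay in the upper part of the FPKM range. Replicate spread was smaller among siGSE1 libraries for 6 of the 9 genes, and larger for RB1, RBL1 and RBL2.

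Several of these genes overlap others on the opposite strand, and the sources used here do not say whether counting used strand. LTO1, at the end of CCND1, had 5.84% of its mean count. TSPAN31 and MARCHF9 had 17.5% and 21.5% of that of CDK4, and AKTIP had 39.0% of that of RBL2. How reads in shared exons were divided between these pairs was not tested. Annotated pseudogenes of CCND2, CCND3 and CDK4 had at most a mean of 0.33 counts per library.

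Of 17 tested genes within 1 Mb, 3 were lower in siGSE1 cells, 1 was higher and 13 did not pass the threshold, a window chosen after the values were seen. These 4 of 17 stand beside 19.9% of all genes tested, a share near that of the window. MYEOV, a neighbour of CCND1 known from joint amplification in tumors, had 21.78, 22.14 and 22.51 FPKM in siGSE1 cells, against 40.63, 32.09 and 41.3 FPKM in control cells, a log2 fold change of -0.80 (SE 0.08). Its values followed those of CCND1 library by library, including the low control replicate 2. LTO1, a ribosome biogenesis factor that overlaps CCND1, had a log2 fold change of -0.30 (SE 0.09), and CPT1A, which carries fatty acids into mitochondria, -0.30 (SE 0.06). CTTN, the actin-binding cortactin, had 0.24 (SE 0.05). FADD, the adaptor of death receptors, lies between CCND1 and CTTN and had 0.01 (SE 0.10).

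**Figure D4:**
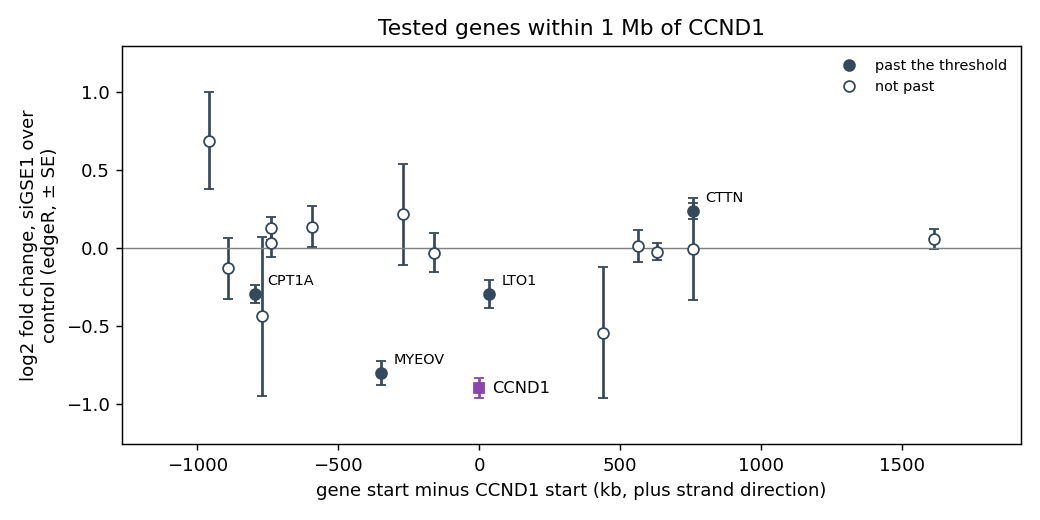
Log2 fold change of siGSE1 over control (± SE, edgeR) of the tested genes within 1 Mb of CCND1, against the distance of their start from the CCND1 start in kilobases. Filled points passed the threshold and are named, and the rightmost gene reaches into the window with its far end. Among these genes MYEOV (-0.80) has the value closest to that of CCND1 (-0.90), and CTTN (0.24) lies on the other side of 0.

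By the rule for likeness, the 5 genes most like CCND1 over the 6 libraries were TMEM14B, UCHL5, TGIF1, MAML3 and MYEOV, out of 6933 tested genes with a mean of at least 5 FPKM. Pearson's r on log2(FPKM + 1) was 0.999 for TMEM14B, 0.998 for UCHL5, 0.997 for TGIF1 and MAML3 and 0.996 for MYEOV. The 6 points share their 2 groups, their depth and the low control replicate 2, so r is given as a description. TMEM14B had 10.8, 10.9 and 10.9 FPKM in siGSE1 cells, against 15.7, 14.1 and 15.5 FPKM in control cells. TGIF1, a homeobox repressor of TGF-beta signaling, had a log2 fold change of -0.15, smaller than the -0.90 of CCND1 at an r of 0.997.

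The other genes of the pathway were taken from 9 lists that together name 148 genes. These lists were chosen with earlier results of these data known, and their shares were not tested against that of all genes. Of the 143 tested, 37 were higher in siGSE1 cells, 15 lower and 91 did not pass the threshold, with a median log2 fold change of 0.04. Of all genes tested, 10.9% were higher, 9.02% lower and 19.9% passed in either direction, with a median of 0.00. These shares stand beside the counts of each list below. The first list, the other CDK inhibitors, also holds CDKN3 and CCNDBP1, which are outside the CDKN1 and CDKN2 families. Of its 5 tested genes 1 fell and 0 rose, and the median log2 fold change was -0.27. CDKN1A (p21), an inhibitor of CDK2 that also helps cyclin D complexes assemble, fell to 57.3 ± 1.82 FPKM in siGSE1 cells, against 86.0 ± 8.60 in control cells (mean ± SD of 3 libraries). Its log2 fold change was -0.61 with SE 0.07 (adjusted p = 1.19e-05, edgeR). It was lower in all 3 siGSE1 libraries, which had 55.74, 56.75 and 59.27 FPKM, against 92.38, 76.21 and 89.35 FPKM in control cells. CDKN2A had 0 counts in each siGSE1 library, against 6, 6 and 0 in control cells, and CDKN2B had 0 in each siGSE1 library, against 0, 3 and 0, too few to test. A549 is known to lack this locus. In 6 of 15 alternatives 1 of the list rose, namely without TMM factors, with TPM scaling, with both limma fits, with GC and length trends removed and without control replicate 2. In the fit reported, CDKN3 alone of the tested genes of the list had a log2 fold change above 0 (0.22, not past the threshold).

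Among genes of the cyclin E and cyclin A kinases and their activators, 2 of 13 rose and 3 fell, with a median log2 fold change of -0.10. CCNE1, the cyclin that follows cyclin D in late G1, fell to 8.54 ± 0.46 FPKM in siGSE1 cells, against 10.6 ± 0.82 in control cells (SD, n = 3 each, edgeR adjusted p = 0.0122). CDC25B, a phosphatase that activates CDKs, fell by 0.18 on the log2 scale, and WEE1, a kinase that inhibits them, by 0.33. PKMYT1, another inhibitory kinase, rose by 0.35. The other riser was CCNA2 (cyclin A2), by 0.19 (SE 0.06), named after its values were seen. Without siGSE1 replicate 2 the calls of CDC25B, WEE1 and PKMYT1 were lost, as were that of CDC25B without siGSE1 replicate 3 and that of WEE1 without control replicate 1. Both limma fits also lost the call of WEE1, and TPM scaling lost that of CDC25B. The call of CCNE1 was lost without siGSE1 replicate 1, without siGSE1 replicate 3 and without control replicate 1, where 12 of 15 alternatives kept it. Without siGSE1 replicate 2 the list had 0 rising and 1 falling, without siGSE1 replicate 3 it had 1 and 1, without control replicate 2 1 rose and without control replicate 1 1 fell. CDK2 itself had 11.1 FPKM in siGSE1 cells and 10.6 in control cells and did not pass.

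Of 10 E2F and DP genes, the partners of the RB family, 2 rose and 2 fell, with a median log2 fold change of 0.01. E2F1, the activating E2F bound by RB1, rose to 20.0 ± 0.79 FPKM in siGSE1 cells, against 15.6 ± 0.87 in control cells (mean ± SD of 3 libraries). Its log2 fold change was 0.33 with SE 0.07 (adjusted p = 0.00259, edgeR). TFDP1, the common DP partner, rose by 0.37 on the log2 scale (SE 0.06). E2F2, another activating E2F, and E2F5, a repressor E2F, fell by 0.33 and 0.44. The E2F2 call was kept in 4 of 15 alternatives and was lost when any 1 library other than control replicate 3 was left out. It was also lost with DESeq2, without TMM factors, with TPM scaling, with both limma fits and with the replicate block. The E2F5 call was kept in 10 of 15. In the list 0 fell without siGSE1 replicate 1, without siGSE1 replicate 3, without control replicate 1 or with either limma fit. Without siGSE1 replicate 2 or control replicate 2, 1 fell. E2F4, a repressor E2F and partner of RBL1 and RBL2, had 25.8 FPKM in siGSE1 cells and 25.3 in control cells and did not pass.

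Of 9 genes of the MuvB core and its partners, which join RBL1 and RBL2 in the DREAM repressor or MYBL2 and FOXM1 in activating complexes, 3 rose and 0 fell, with a median log2 fold change of 0.25. MYBL2 rose to 38.3 ± 1.10 FPKM in siGSE1 cells, against 23.6 ± 1.07 in control cells (mean ± SD of 3 libraries). Its log2 fold change was 0.67 with SE 0.06 (adjusted p = 1.45e-06, edgeR). FOXM1, a driver of G2 and M phase genes, rose by 0.27 and the core subunit LIN37 by 0.49 on the log2 scale, and LIN37 lost its call without siGSE1 replicate 2 and without siGSE1 replicate 3, against 13 of 15 alternatives that kept it.

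Of 32 E2F target genes of the G1/S transition, 8 rose, 2 fell and 22 did not pass, with a median log2 fold change of 0.04. CDC45 and GINS2, parts of the replicative helicase, rose by 0.41 and 0.43 on the log2 scale, and the histone chaperone subunit CHAF1A by 0.33. GMNN (geminin), the inhibitor of replication licensing, fell to 7.96 ± 0.44 FPKM in siGSE1 cells, against 11.3 ± 0.53 in control cells (mean ± SD of 3 libraries). The log2 fold change was -0.53 with SE 0.08 (adjusted p = 3.42e-04, edgeR). The helicase subunits MCM2, MCM3, MCM5, MCM6 and MCM7 did not pass, while MCM4 fell by 0.19, a gene named after its values were seen. Without siGSE1 replicates 1, 2 and 3 the risers were 4, 4 and 3, and without control replicate 3 they were 4, and 1 fell when any 1 siGSE1 replicate or control replicate 1 was left out. Of 14 mitosis and proliferation markers, 6 rose and 2 fell, with a median log2 fold change of 0.12. BIRC5 (survivin) rose by 0.50, AURKB by 0.39, TOP2A by 0.28 and MKI67 (Ki-67) by 0.21 on the log2 scale. The 2 that fell were CCNB1, by 0.20, and AURKA, by 0.22, named after their values were seen. The risers were 3 without siGSE1 replicate 1 or 3. The markers that fell were 0 without siGSE1 replicate 1, 1 without siGSE1 replicate 2, siGSE1 replicate 3 or control replicate 1, and 4 without control replicate 2. MKI67 lost its call without siGSE1 replicate 1, without siGSE1 replicate 3 and with GC and length trends removed, while 12 of 15 alternatives kept it.

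Of 20 genes for the turnover of cyclin D and p27, 2 rose, 1 fell and 17 did not pass. Their median log2 fold change was 0.04, and the 15% that passed lay below the 19.9% of all genes tested. GSK3B, a kinase that marks cyclin D1 for export and degradation, rose by 0.24 on the log2 scale (SE 0.05), and SKP2, the ubiquitin ligase subunit that recognises p27, rose to 5.80 ± 0.56 FPKM in siGSE1 cells, against 4.26 ± 0.21 in control cells (SD, n = 3 each, edgeR adjusted p = 0.00558). AMBRA1, the ligase adaptor for D cyclins, had 6.15 FPKM in siGSE1 cells and 5.62 in control cells and did not pass. CUL4B, a ligase scaffold, fell by 0.31. Its call was lost without siGSE1 replicate 2, without siGSE1 replicate 3 and with both limma fits, while 11 of 15 alternatives kept it. Of 11 genes listed as chaperones or partners of CDK4 and CDK6, 2 rose and 3 fell, with a median log2 fold change of -0.13. CDC37L1, related to the kinase cochaperone CDC37, fell by 0.97 and SERTAD2 by 0.62 on the log2 scale. PTPRJ, which rose by 0.72, is on the list although it is a receptor phosphatase and no chaperone. CDC37 itself, which loads CDK4 onto HSP90, had 45.9 FPKM in siGSE1 cells and 47.1 in control cells and did not pass, and HSP90AB1 fell by 0.23. Of this list 1 rose without siGSE1 replicate 1, siGSE1 replicate 3, control replicate 1 or control replicate 3. The HSP90AB1 call was lost without siGSE1 replicate 2 and with both limma fits, and kept in 12 of 15 alternatives.

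Of 29 tested transcription factors known to act at the CCND1 gene in various cells, 12 rose, 1 fell and 16 did not pass, with a median log2 fold change of 0.16. KLF6 is on this list and was singled out by the study in its title, so the count with it is no independent evidence. KLF6 rose to 15.5 ± 0.15 FPKM in siGSE1 cells, against 7.32 ± 0.10 in control cells (mean ± SD of 3 libraries). The log2 fold change was 1.06 with SE 0.06 (adjusted p = 1.05e-08, edgeR). ETS2 rose by 0.68, the AP-1 subunit JUN by 0.73 and YAP1, the coactivator of the Hippo pathway, by 0.36 on the log2 scale. The member that fell was FOSL1, by 0.55, which is named after its values were seen. FOSL1 had 11.64, 9.93 and 9.79 FPKM in siGSE1 cells, against 17.27, 9.8 and 18.23 FPKM in control cells, and the groups overlapped through control replicate 2. The number of factors that fell was 0 in 9 of 15 alternatives, which were DESeq2, TPM scaling, both limma fits, the robust prior, and leaving out siGSE1 replicate 2, siGSE1 replicate 3, control replicate 1 or control replicate 3. CTNNB1, TCF7L2, SP1 and RELA did not pass.

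**Figure D5:**
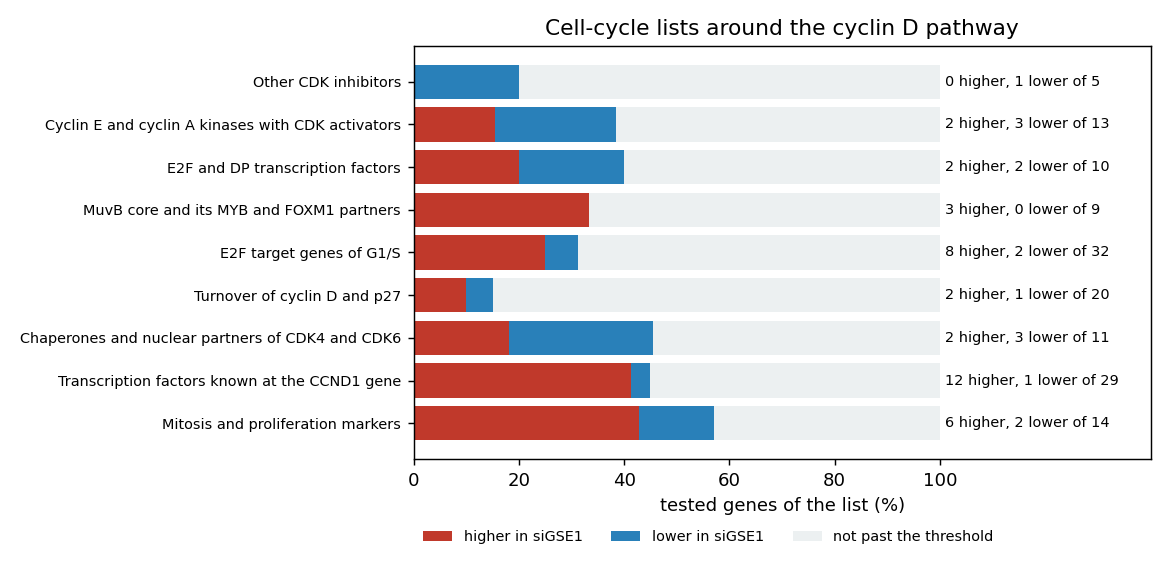
Share of the tested genes of each list that were higher in siGSE1 cells, lower in siGSE1 cells or not past the threshold, with the counts at the right. E2F targets had 8 higher and 2 lower of 32, and transcription factors known at CCND1 had 12 higher and 1 lower of 29. Of all genes tested, 10.9% were higher and 9.02% lower.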

How the data were processed

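Total RNA (500 ng per library) was sequenced in 3 siGSE1 and 3 control libraries. The deposited table gives raw read counts and, by the authors, FPKM per gene, per the file headers. Per the submitters' processing notes, the tools included HTSeq, HISAT2, edgeR and StringTie 1.3.3b, with build hg38. The series text names STAR, RPKM and DESeq2 instead. The sources used here do not give the annotation release. FPKM equalled count over exonic length and library total, within 0.0051, in 100% of values, so a change in a few abundant genes moves all FPKM.

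Counts were tested with edgeR 4.0.16 (filterByExpr with minimum count 10 and total 15, TMM, quasi-likelihood fit on group alone, Benjamini-Hochberg over 15937 genes, threshold 0.05) in R 4.3.3, and tested on simulated counts first. The standard error is the absolute log2 fold change over the root of F. Fold changes are TMM-scaled and FPKM are as deposited. Depth limits precision by counting error, at most 5.55% per library for the members tested. The biological coefficient of variation was 7.00%.

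The members, lists and naming rule were chosen with earlier results of these data known. Named were the 10 members, GSE1, KLF6, up to 4 passing genes per list by smallest adjusted p, and the 5 genes most like CCND1. Other names were chosen after their values were seen. Alternatives were DESeq2 1.42.0, limma 3.58.1 on log2(FPKM + 1) or log2(FPKM + 0.1), no TMM, TPM scaling, no filter, a robust prior, a replicate block and leaving out each library, and, added after the data were seen, removal of GC and length trends.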

Additional observations from a re-analysis of the deposited data

How the results depend on the processing

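GSE1 kept its direction and call in all 15 alternatives, with log2 fold changes from -1.09 to -0.85. As a description of genes chosen with this contrast known, the log2 fold change ran from -0.98 to -0.84 for CCND1, from -0.49 to -0.35 for CCND3 and from 0.38 to 0.62 for CDK6. RB1 ranged from -0.0636 to 0.130 without single libraries, below 0 without siGSE1 replicate 2 (-0.0636) and control replicate 2 (-0.0594), and was -0.0116 with GC and length trends removed. The number of members higher, 1, was 2 without TMM factors, 3 with TPM scaling, and 2 with no low-count filter, with the robust prior, with the replicate block and with GC and length trends removed, through CDKN2C and, with TPM scaling, RBL2. Leaving out single libraries gave 1 to 2 members higher and 2 lower in every case.

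Genes higher over the whole table, 1730, ranged from 1049 to 1914 and genes lower, 1437, from 814 to 1648 when single libraries were left out. Genes higher were 2544 with TPM scaling and 2006 without TMM factors. Genes lower were 931 with TPM scaling, 887 with limma on log2(FPKM + 1) and 909 with limma on log2(FPKM + 0.1). Pathway genes higher, 37, ranged from 23 to 38 and those lower, 15, from 7 to 18 without single libraries. Of the pathway genes, 47 were higher with TPM scaling and 44 without TMM factors, and 8 were lower with either limma fit. The causes were not tested, except that fewer samples enter when a library is left out.

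With the replicate block, CDKN2C passed the threshold (log2 fold change 0.27), 1715 genes were higher and 1382 lower. The within-group deviations of same-numbered libraries correlated at 0.02, -0.02 and 0.00, and not every library correlated best with its own number. With 3 libraries per group these values cannot tell whether same-numbered libraries shared a culture or a day. Counts of CCND2, CDKN2A and CDKN2B were too low to be compared between the groups.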
